A study of Spodoptera frugiperda with 18 samples.

Results

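Both arms of miR-375 and the miRNA miR-3338-y were described across the life cycle of the fall armyworm, Spodoptera frugiperda, a crop pest moth. These 3 rows, sfr-miR-375-5p, sfr-miR-375-3p and miR-3338-y, were chosen by name out of 660 miRNA rows because earlier results of the same libraries had shown them higher in males. The male excess is therefore given as a description, with no test. Small RNA had been sequenced from whole insects in 18 libraries. They were 1 library of eggs, 1 of each larval instar from 1 to 6, 1 of prepupae, 6 of pupae (each sex on days 1, 4 and 7) and 4 of adults (each sex on days 1 and 4). The labels name no strain, treatment or genotype, give no sex for egg, larva or prepupa, and do not say how many insects made up a library or whether libraries came from separate cultures. Each sex and age has 1 library, so libraries of other ages and the other sex stand in as replicates of a stage. The p-values then reflect the spread among the larval, pupal and adult libraries of each fit, which may be technical in part. The egg and prepupa libraries entered no test.

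A miRNA is cut from a hairpin precursor whose stem gives a 5p and a 3p strand, and the strand that is kept recognises messenger RNAs mainly through its seed, bases 2 to 8. miR-375 is an old miRNA shared by insects and vertebrates, best known in mammals from the endocrine cells of the pancreas and other neuroendocrine cells. miR-3338 is a family name used in the silkworm, and no role is attributed to it here.

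The sequences of the 3 miRNAs and of the rows that nearly copy them are shown because the forms of miR-375 differ in their seed, which stands in capitals. They are written 5′ to 3′ in DNA letters, as deposited.
sfr-miR-375-5p: aCCCGAGCggattgagcaaact
miR-375-x: aCCCGAGCggattgagcaaactaa
sfr-miR-375-3p: aGTTTGTTcgccccggctcga
shifted 3p form: tTTGTTCGccccggctcgagtcg
miR-375-y: tTTGTTCGccccggctcgagtcgc
miR-3338-y: cATGTACTtactttgtttgttct

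miR-375-x holds the whole of sfr-miR-375-5p and runs on at its 3′ end, so both have the same seed. A predicted miRNA, called the shifted 3p form here, and the family row miR-375-y start 2 bases later than sfr-miR-375-3p and are identical to it over the 19 bases they share. Because of that shift their seed is TTGTTCG, whereas the seed of sfr-miR-375-3p is GTTTGTT. The word shifted gives a start relative to sfr-miR-375-3p only and does not mark a lesser form. The seed of sfr-miR-375-3p was found in 1 row of the 660, as was that of miR-3338-y, which also had no near copy, meaning a row that aligns over at least 18 bases with no more than 2 mismatches. By RNAduplex the 5p arm formed 17 base pairs with sfr-miR-375-3p and 17 with the shifted 3p form. The predicted pairing energies were -22.1 and -18.3 kcal per mol. The values of the 5 miR-375 rows are uncertain where counting could have split or shared reads between them.

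Levels are CPM, the counts of a row scaled by the total of its library over all miRNA rows. Totals ran from 230451 counts in instar 3 to 4808814 in the prepupa, and 3 counts, taken here as the floor of detection, made 13.02 CPM and 0.624 CPM in these libraries. The 9 shallowest libraries, with at most 796582 counts, were those of eggs and larvae and of day 4 and day 7 male pupae. Each of the others had at least 1197762. All larvae but only 2 of the 6 pupae were thus in the shallower set, and at pupal days 4 and 7 the male library was there and the female one was not. The protocol in the labels speaks of 9 small RNA libraries and does not say which were prepared or sequenced together. Intervals are exact 95% binomial intervals. Like the floors they reflect counting error alone, since sequenced reads that carry no molecular identifier can repeat 1 molecule. In whole insects, fewer cells of a type and less of a miRNA per cell cannot be told apart.

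miR-3338-y was all but restricted to one sex from the first day of the pupa. Male pupae had 2493, 2122 and 1323 CPM on days 1, 4 and 7, and male adults had 1047 and 734 CPM on days 1 and 4. Female pupae had 3.29, 2.27 and 3.17 CPM on the same days, and female adults had 12.4 and 14.2 CPM. The 5 male libraries lay above the 5 female libraries without overlap, and the lowest male library was the oldest. The female counts behind these levels were 9, 7 and 11 in pupae and 26 and 17 in adults, each above the floor of 3 counts.

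The ratio of males to females for miR-3338-y was 759 at pupal day 1 (95% interval 399.6 to 1661). It was 934 at pupal day 4 (452 to 2328) and 418 at pupal day 7 (232 to 842). In adults it was 84.1 on day 1 (57.3 to 129) and 51.7 on day 4 (32.2 to 88.9). Each adult interval lay below each pupal interval, with the male level lower and the female level higher in adults than in pupae. Of 344 miRNA rows with a mean of at least 10 counts in the 10 sexed libraries, 24, or 6.98%, were higher in males at all 5 ages, and 7, or 2.03%, had all male libraries above all female ones. miR-3338-y is in both counts, which is a result of how it was chosen.

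**Figure D1:**
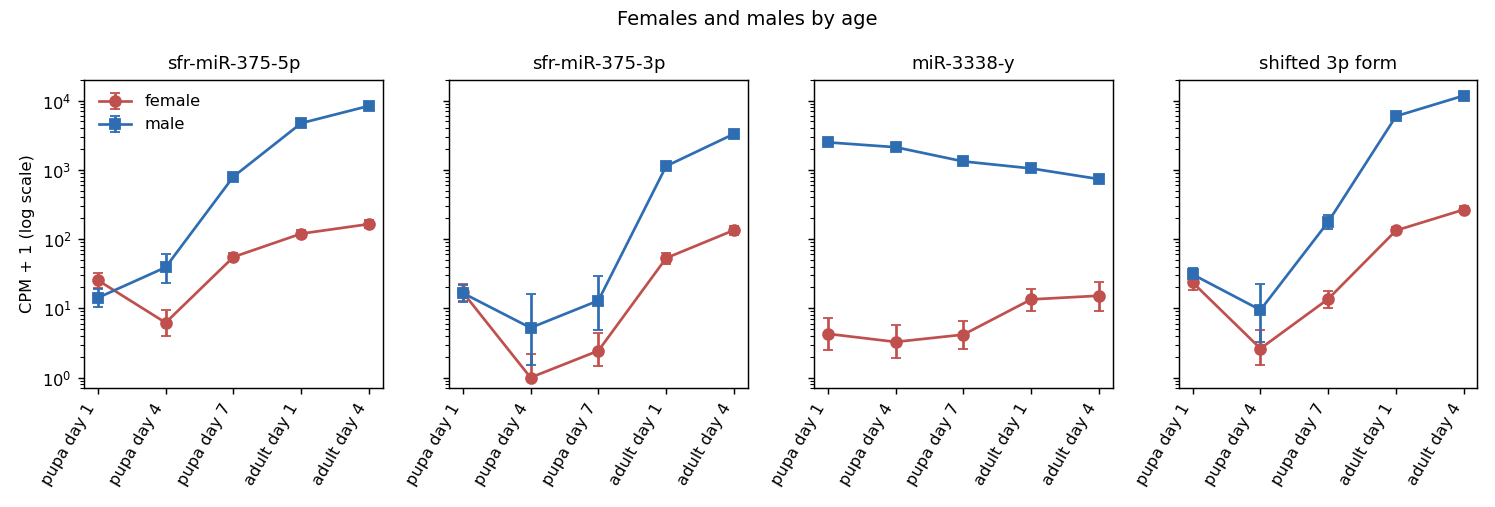
Levels of the 3 miRNAs and of the shifted 3p form in female (red circles) and male (blue squares) libraries at the 5 ages, as CPM + 1 on a log axis, with exact 95% counting intervals and 1 library per point. miR-3338-y is apart between the sexes from pupal day 1, whereas at pupal day 1 the male is below the female for sfr-miR-375-5p (ratio 0.540) and the miR-375 rows are furthest apart in adults.

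The miR-375 arms did not have this timing, and at pupal day 1 they were not male-high. At that age the male pupa had 13.2 CPM of sfr-miR-375-5p and the female pupa 24.5 CPM, a ratio of 0.540 (95% interval 0.352 to 0.815). In males it then reached 38.1 and 797 CPM in the pupae of days 4 and 7, and then 4722 and 8381 CPM in the adults of days 1 and 4. In females these 4 ages had 5.20, 54.1, 119 and 164 CPM. Males were above females at 4 of 5 ages, but the 2 sexes overlapped over the 10 libraries, because the male pupae of days 1 and 4 lay below the female adults.

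For sfr-miR-375-5p the sexes were further apart at each later age, though not every step was beyond counting error. The ratio intervals of pupal days 4 and 7 overlapped, as did those of adult days 1 and 4. The male to female ratio was 7.33 at pupal day 4 (95% interval 3.53 to 15.4), 14.7 at pupal day 7 (12.3 to 17.7), 39.8 at adult day 1 (35.1 to 45.3) and 51.2 at adult day 4 (44.5 to 59.2). Between pupal days 4 and 7 the level was multiplied by 20.9 in males and by 10.4 in females. The day 4 pupae held only 18 counts in the male and 16 in the female. From pupal day 7 to adult day 1 it was multiplied by 5.92 in males and by 2.19 in females.

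sfr-miR-375-3p, the other arm of the same hairpin, came up later. Male pupae had 15.6, 4.23 and 11.9 CPM on days 1, 4 and 7, and male adults had 1130 and 3302 CPM on days 1 and 4. Female pupae had 16.1, 0 and 1.44 CPM, and female adults had 52.2 and 134 CPM. Both adult males were above every other library, and the day 1 pupae of the sexes were alike, with a ratio of 0.973 (95% interval 0.628 to 1.51).

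The pupal values of sfr-miR-375-3p rest on few reads. The day 4 pupae held 0 counts in the female, where the floor was 0.974 CPM, and 2 counts in the male, where it was 6.35 CPM, so no ratio is given. The day 7 pupae held 5 counts each, in libraries of unlike depth, and the ratio of 8.29 has an interval from 1.91 to 36.03. In adults the ratio was 21.7 on day 1 (17.9 to 26.5) and 24.7 on day 4 (21.2 to 29.1). The step from the day 7 male pupa to the day 1 male adult was 94.7-fold, against 5.92-fold for sfr-miR-375-5p and 33.7-fold for the shifted 3p form. Between pupal days 4 and 7 the shifted 3p form was multiplied by 20.9 in males, as was sfr-miR-375-5p. That form, on 4 and 74 counts, was the larger 3p row in all male pupae and adults. In the same males sfr-miR-375-3p was multiplied by 2.82, on 2 and 5 counts.

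The most abundant form of miR-375 in adult males was neither of the species-named arms but the shifted 3p form. In male adults it had 5950 CPM on day 1 and 11801 CPM on day 4. In the female adults it had 132 and 265 CPM. It ranked 20 among 660 rows in the day 4 male adult, where sfr-miR-375-5p ranked 24 and sfr-miR-375-3p ranked 33. In that male, miR-3338-y ranked 68.

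On pupal days 1, 4 and 7, the shifted 3p form had 29.9, 8.46 and 177 CPM in males. Females had 22.6, 1.62 and 12.7 CPM. Males were higher at 5 of 5 ages, with a ratio whose interval held 1 at pupal day 1 (1.32, 0.941 to 1.86). On adult days 1 and 4 the ratio was 45.02 (39.97 to 50.9) and 44.5 (39.8 to 49.8). The longer forms were scarce, and neither miR-375-x nor miR-375-y was above 20.9 CPM in any library.

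**Figure D2:**
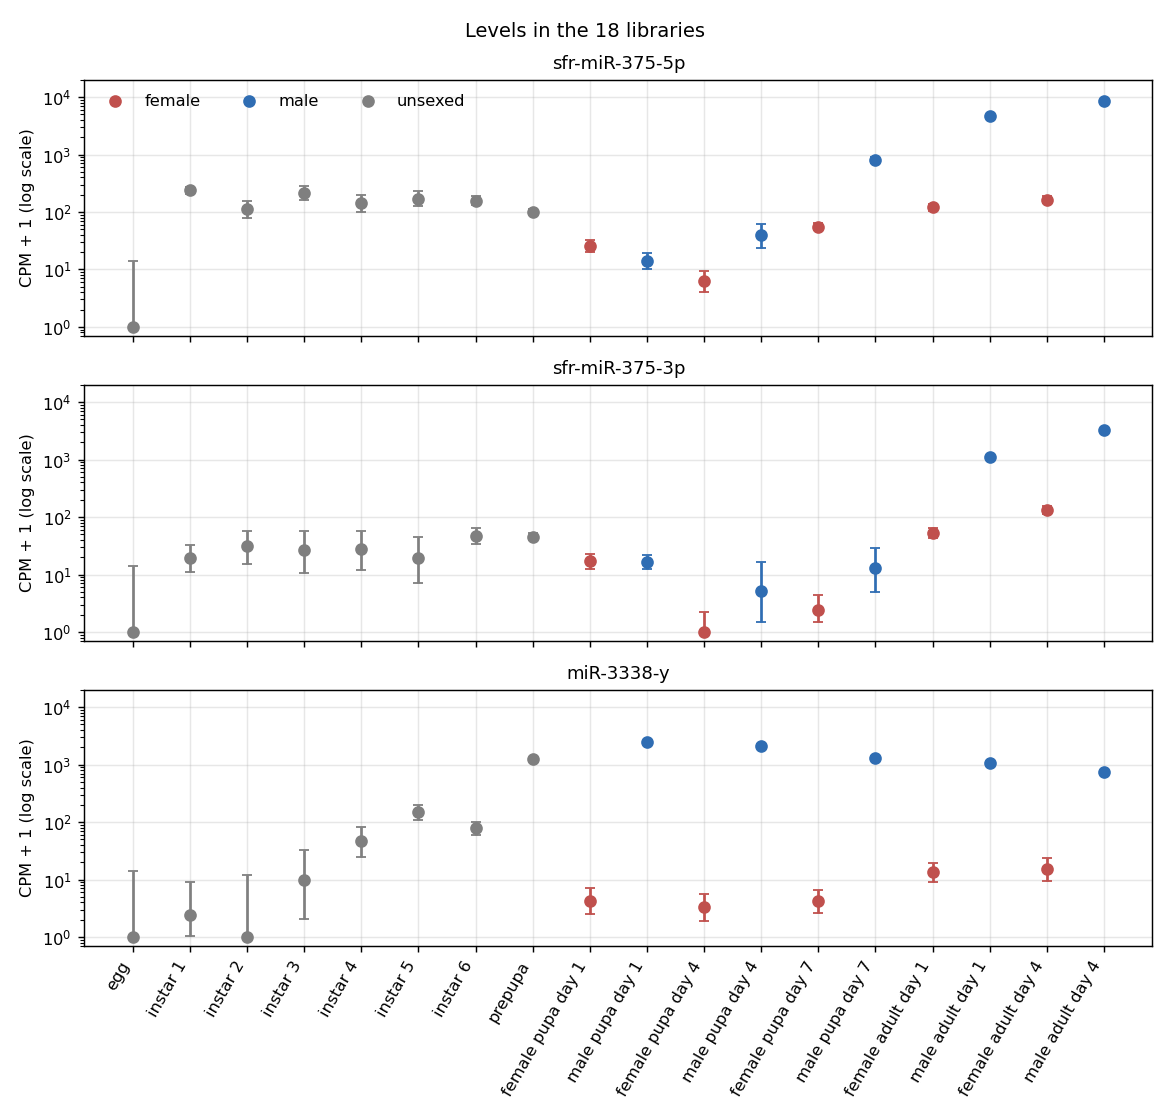
Levels of sfr-miR-375-5p, sfr-miR-375-3p and miR-3338-y in each of the 18 libraries, as CPM + 1 on a log axis, with exact 95% counting intervals; grey marks libraries with no sex in the labels. miR-3338-y reached 1266 CPM in the prepupa after at most 148 CPM in the larvae, and both miR-375 arms were highest in the male adults.

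Which arm of miR-375 dominated depended on whether the shifted 3p rows were counted. By the species-named rows alone, the 5p arm took between 69.5% and 80.7% of the counts in 3 of the adult libraries and 55.1% in the day 4 female adult (95% interval 49.7 to 60.3). With all 5 rows summed by arm, the 5p share was 40.0% in the day 1 male adult (39.5 to 40.5) and 35.7% in the day 4 male adult (35.4 to 36.02). In the female adults it was 39.2% on day 1 (35.4 to 43.1) and 29.3% on day 4 (25.9 to 32.9). Summed in this way, the 3p arm was the larger in all 4 adults.

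The arm shares of the summed rows varied with age. The 5p share was 38.7% in the day 1 female pupa (31.4 to 46.4) and 22.5% in the day 1 male pupa (16.4 to 29.5). At pupal day 7 it was 79.3% in the female (73.6 to 84.3) and 80.5% in the male (76.3 to 84.2). The intervals of the sexes overlapped at pupal days 4 and 7 and at adult day 1, and not at pupal day 1 or adult day 4. The larvae had between 37.6% in instar 2 and 67.6% in instar 5, and the prepupa had 50.0%. Within the 3p arm of adults, the shifted form took from 66.5% of counts in the day 4 female to 83.9% in the day 1 male.

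**Figure D3:**
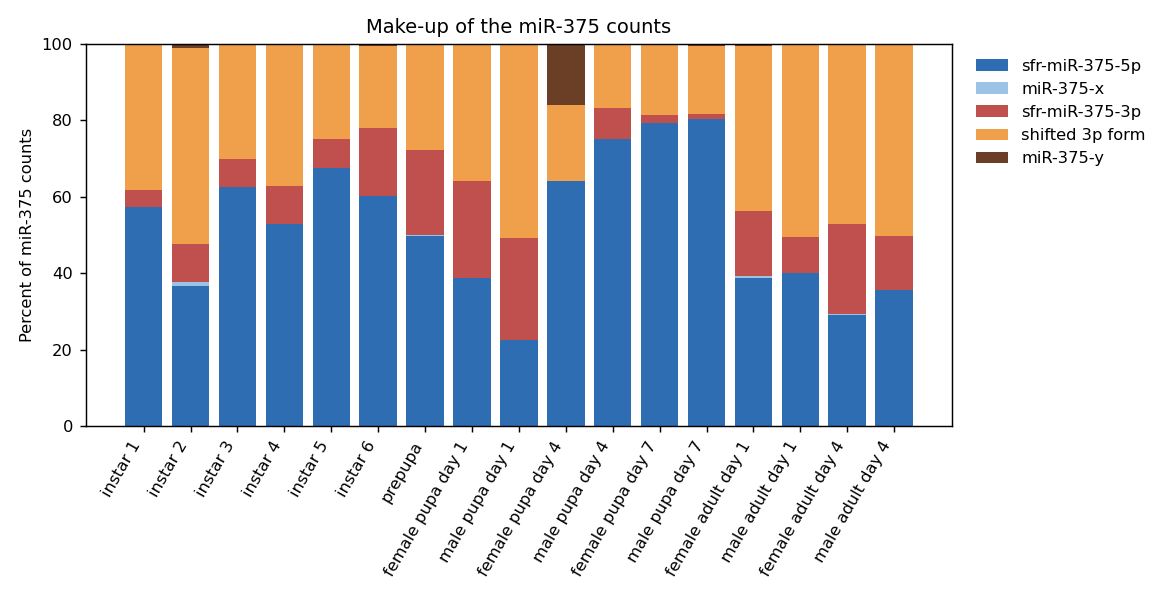
Share of each of the 5 miR-375 rows in the miR-375 counts of a library, in percent, for 17 libraries; the egg, with 1 count in all, is left out. The 5p arm (blue) is the larger part in the day 7 pupae, at 79.3% and 80.5%, and the smaller part in all 4 adults.

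The larvae are not sexed and have no part in the male excess. Their levels were nevertheless known when these miRNAs were chosen, so the p-values of the larval trend are not independent of the choice. miR-3338-y had 1.42, 0, 8.68, 46.1, 148 and 76.6 CPM in instars 1 to 6, from 1, 0, 2, 12, 40 and 61 counts. The 3 oldest instars lay above the 3 youngest, each of which was below the floor of 3 counts. With instar number as a linear term over the 6 larvae, miR-3338-y rose by 1.54 on the log2 scale per instar (SE 0.34), which edgeR's quasi-likelihood test called (adjusted p = 0.0171). Of 234 rows tested, 25, or 10.7%, rose with instar and 43, or 18.4%, fell. With library totals alone as scaling 16 rose and 49 fell. The rise had an adjusted p of 0.0730 without instar 1, 0.0522 without instar 2 and 0.0507 without instar 3 by edgeR. Over 13 alternatives it ran from 6.97e-05 to 0.0730.

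The miR-375 rows did not pass the test of the larval trend. The instars, from 1 to 6, gave 236, 112, 217, 142, 170.1 and 157 CPM of sfr-miR-375-5p, with no order by age (log2 change per instar -0.020, SE 0.12, edgeR adjusted p = 0.931). sfr-miR-375-3p stayed between 18.5 and 46.4 CPM on 5 to 37 counts (log2 0.22, SE 0.14, edgeR adjusted p = 0.249). The shifted 3p form had 158 CPM in instar 1 and 56.5 CPM in instar 6 (log2 -0.27, SE 0.10, edgeR adjusted p = 0.0854).

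The egg held 0 counts of each of the 3 miRNAs, below a floor of 10.5 CPM, and 1 count of the shifted 3p form. The prepupa, the stage before the moult to the pupa, had 1266 CPM of miR-3338-y, above all larvae. The day 1 pupae that follow it had 3.29 CPM in the female and 2493 CPM in the male, with a mean of 1248 CPM. The labels do not give the sex of the prepupae, and whether that library held both sexes was not tested. miR-2763-z, also higher in the day 1 male pupa than in the female, had 709 CPM in the prepupa against a mean of 422 CPM in these pupae. For sfr-miR-375-5p the prepupa had 100.2 CPM, above both day 1 pupae, and for sfr-miR-375-3p 44.7 CPM, also above both.

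In the order of levels over all 18 libraries, miR-3338-y ran from male pupae through the prepupa to male adults. The day 7 male pupa and the prepupa, neighbours in that order, did not differ beyond counting error. The 3 oldest larval instars came next. From the female adults down, each library overlapped its neighbour in that order, a run that holds the female pupae, the 3 youngest instars and the egg. For sfr-miR-375-5p, the day 4 and day 1 male adults and the day 7 male pupa led in that order, each apart from the next beyond counting error. From instar 1 down to the prepupa, each library overlapped its neighbour in that order, a run that holds all larvae and both female adults. The lowest level of sfr-miR-375-5p in any library but the egg was 5.20 CPM, in the day 4 female pupa.

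Pupae were compared with larvae to see which miRNAs differ across metamorphosis, with both sexes of the pupa in 1 group. The male excess that chose these miRNAs was seen in part in these pupae, so their p-values are not independent of that choice. Among 320 rows tested, 120, or 37.5%, passed an adjusted p of 0.05 by edgeR, and none of the 3 miRNAs was among them. Of those, 62 were higher in pupae and 58 lower, against 44 higher and 78 lower when counts were scaled by library totals alone. The larval mean of miR-3338-y was 46.8 ± 58.0 CPM (SD, n = 6) and its pupal mean 991 ± 1147 CPM (SD, n = 6). The log2 difference was 4.34 (SE 1.87, edgeR adjusted p = 0.0772). Its pupal libraries lay on either side of the larvae, all 3 males above the highest larva and all 3 females below the 3 oldest instars. The DESeq2 Wald test gave an adjusted p of 0.00885 for it, the lowest of 23 alternatives, which reached 0.324.

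The larval mean of sfr-miR-375-5p was 172 ± 46.6 CPM (SD, n = 6), and every pupa but the day 7 male was below the lowest larva, at 112 CPM. Its log2 fold change was 0.27, SE 1.18 (edgeR adjusted p = 0.900). Without the day 7 male pupa the log2 change was -2.38 and the adjusted p 0.0731 by edgeR, and over 23 alternatives the adjusted p ran from there to 0.968. For sfr-miR-375-3p the larval mean was 27.8 ± 10.3 CPM (SD, n = 6) and the pupal mean 8.22 ± 7.21 CPM (SD, n = 6), and all 6 pupae were below all 6 larvae (log2 -1.63, SE 1.02, edgeR adjusted p = 0.203). The shifted 3p form had a log2 change of -0.91, SE 1.05, with an edgeR adjusted p of 0.526.

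Adults were compared with pupae with sex as a block, so that each stage held both sexes in equal number. The male excess that chose these miRNAs was seen in the same 10 libraries, so their p-values here are not independent of that choice. sfr-miR-375-3p was the higher in adults, with a log2 difference of 6.01 (SE 1.43, edgeR adjusted p = 0.0197). All 4 adults were above all 6 pupae, in females as in males. The shifted 3p form was higher by a log2 fold change of 5.59, SE 1.22 (edgeR adjusted p = 0.0154). Its 2 female adults overlapped the pupae, since the day 7 male pupa lay between them.

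sfr-miR-375-5p had a log2 fold change of 3.43, SE 1.26, between adults and pupae, which missed the threshold (edgeR adjusted p = 0.0798). The adults of each sex were above the pupae of that sex, 119 and 164 CPM against at most 54.1 CPM in females and 4722 and 8381 CPM against at most 797 CPM in males. miR-3338-y had a log2 fold change of 0.42, SE 0.54 (edgeR adjusted p = 0.563). Its male and female libraries had unlike directions, with male adults below all male pupae and female adults above all female pupae. Of the 344 rows tested, 41, or 11.9%, were higher in adults and 41 lower, so that 1 of the 3 miRNAs passed the test where 23.8% of all rows did in either direction. The call of sfr-miR-375-3p was lost without the day 4 male pupa (edgeR adjusted p = 0.0524). Over 18 alternatives its adjusted p ran from 0.00143 to 0.0746.

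**Figure D4:**
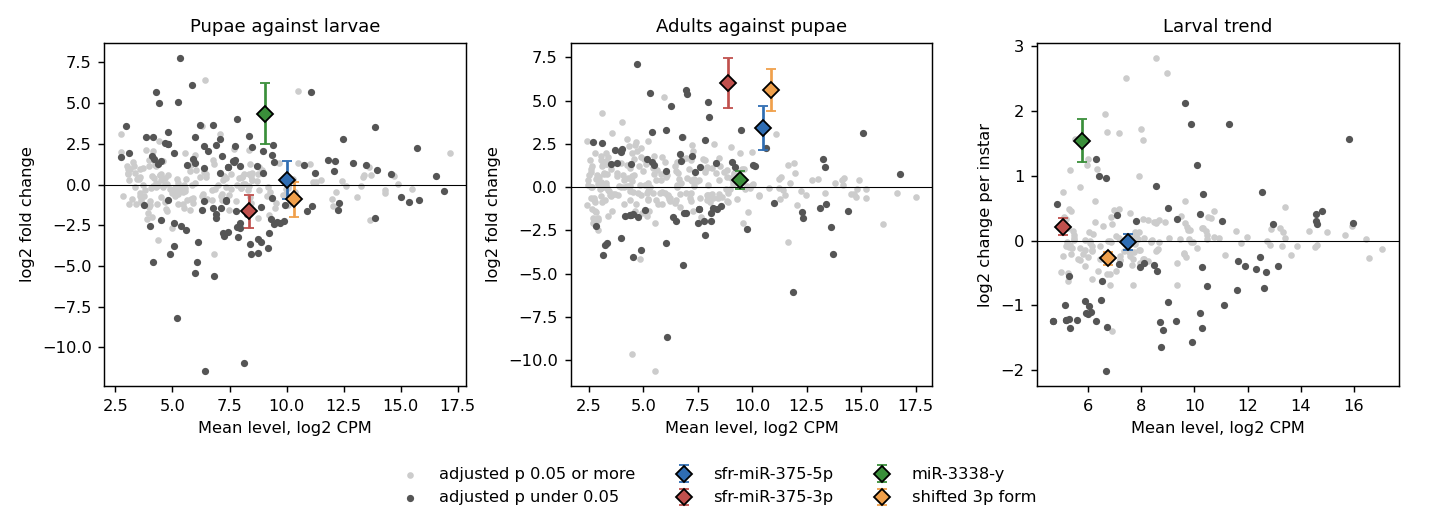
Log2 fold change, or log2 change per instar for the larval trend, against mean level in log2 CPM for every row tested, by edgeR; dark points passed an adjusted p of 0.05, and diamonds with bars (approximate SE) mark the 3 miRNAs and the shifted 3p form. sfr-miR-375-3p stands at 6.01 and the shifted 3p form at 5.59 in adults against pupae, and miR-3338-y at 1.54 per instar in the larvae.

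Whole insects of each sex hold organs that the other lacks, and markers named in lists were read beside the male excess. None of the lists is of an organ that only males hold. miR-989-z, an ovary miRNA in insects, had 4724 and 20612 CPM in the female adults of days 1 and 4 and 1.47 and 1.03 CPM in the male adults. The ovary and egg list, 8 rows of miR-989, miR-184 and miR-92, summed to between 25325 and 59499 CPM in female libraries and between 24126 and 33473 CPM in male libraries, and miR-184-y alone had between 23539 and 33973 CPM in these 10 libraries. Of its 7 rows with enough counts, 0 were higher in males at all 5 ages, as were 6.98% of the 344 rows tested, and 2 were higher in females. The share of all rows higher in females at all 5 ages was not counted, so neither count is read as a result about the list. The part of these markers in the levels of miR-375 and miR-3338-y was not tested.

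The summed levels of the ovary and egg list overlapped between the sexes, and at pupal day 4 the male sum was the higher (28670 against 25325 CPM). Those of the other lists overlapped too. The 4 muscle rows, of miR-1 and miR-133, summed to between 17436 and 47806 CPM in females and between 15532 and 53578 CPM in males. The 12 nervous system rows summed to between 1010 and 1767 CPM in females and between 923 and 1749 CPM in males. Of 10 of these with enough counts, 1, sfr-miR-932-5p, was higher in males at all 5 ages, as were 6.98% of the 344 rows tested. The 5 midgut rows, all of miR-281, summed to between 3021 and 20004 CPM in females and between 2992 and 21469 CPM in males.

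Rows with a pattern most like each miRNA were ranked by Pearson correlation of log2(CPM + 1) over the 18 libraries, among 347 rows with a mean of at least 10 counts, leaving out of the ranking the 3 miRNAs and the near copies of each. The libraries share stages and depth, so the values are descriptions. For miR-3338-y the closest ranked row was miR-2763-z (r = 0.828), followed by a scarce predicted miRNA of at most 31.3 CPM (r = 0.689), a second predicted miRNA (r = 0.630), miR-10491-y (r = 0.595) and miR-100-z (r = 0.594). miR-2763-z had 820 CPM in the day 1 male pupa and 23.7 CPM in the female, and 709 CPM in the prepupa. By adult day 4 its order had turned, with 291 CPM in the male and 423 CPM in the female. The second predicted miRNA had 223 CPM in the day 1 male pupa against 16.8 CPM in the female, and 157 CPM in the prepupa.

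For sfr-miR-375-5p the closest of the ranked rows were sfr-miR-277-3p (r = 0.794), miR-iab-8-x (r = 0.783), miR-277-y (r = 0.763), sfr-miR-2755-3p (r = 0.750) and miR-81-z (r = 0.750). For sfr-miR-375-3p the closest ranked rows were sfr-miR-10491-5p (r = 0.874), miR-iab-8-x (r = 0.820), sfr-miR-34-5p (r = 0.800), miR-277-y (r = 0.793) and miR-81-z (r = 0.735). miR-iab-8-x, a miRNA of the Hox gene cluster in flies, had 111 and 606 CPM in the male adults of days 1 and 4 and 3.35 and 5.01 CPM in the female adults. sfr-miR-277-3p, by contrast, was high in adults of both sexes, from 55079 to 90318 CPM. Among the rows left out, the shifted 3p form had r = 0.951 with sfr-miR-375-3p. The 2 species-named arms had r = 0.859 with each other, and each had a lower r with miR-3338-y, 0.449 for the 5p and 0.428 for the 3p arm.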

How the data were processed

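Per the labels' protocols, RNA was extracted with Trizol and small RNA libraries were made with a TruSeq kit. The authors deposited whole-number counts for each miRNA row and library, with a name and a sequence. The aligner, miRNA caller and genome build: not given in the sources used here. Of 741 rows, those with equal sequences and equal counts were merged, leaving 660. Members and lists were chosen with earlier results of these data known. Comparisons used quasi-likelihood fits in edgeR 4.0.16 (R 4.3.3) with TMM factors and a robust estimate of dispersion, on rows with a mean of 10 counts or more. P-values were adjusted by Benjamini-Hochberg over every row tested, with 0.05 as threshold. The SE is the log2 change over the square root of F, and is approximate. The stage fit held 16 libraries, adults against pupae 10 and the larval trend 6, and the fits were tested on simulated data. Alternatives were other scalings, no filter, DESeq2 1.42.0, limma 3.58.1, rows unmerged, near copies summed, other designs and leaving out each library. Beside the members, near copies, marker lists and the 5 rows most alike in pattern were named. Other tools were RNAduplex 2.7.2, scipy 1.17.1, pandas 2.3.3, numpy 2.4.6, matplotlib 3.10.9 and Python 3.11.15.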

Additional observations from a re-analysis of the deposited data

Results flagged for a closer look

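Of 12 sets of libraries examined, the 3 miRNAs and the shifted 3p form in larvae, pupae and adults, 2 held a library far from the others. The rule flags about 1 in 20 sets of independent, normally spread replicates. These libraries differ in age, and in pupae and adults also in sex, so that rate need not hold here. Both flags were the day 7 male pupa among the 6 pupae, with 797 CPM of sfr-miR-375-5p and 177 CPM of the shifted 3p form. The choice of male-high miRNAs favours a male library, and these 2 rows come from 1 hairpin. That library had 418883 counts, the fewest of the 10 sexed libraries, and holds 334 and 74 counts of these rows.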

How the results depend on the processing

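No paired analysis was possible because the labels give no replicate numbers and each age lies within 1 stage, so that a block on age would take up the stage difference; the sexes were set side by side at each age with no test. By edgeR, leaving out 1 library at a time gave 99 to 123 calls for pupae against larvae, 35 to 88 for adults against pupae and 36 to 74 for the larval trend. Larval calls were 36, 38 and 45 without instars 1, 2 and 3. Adult calls were 48 and 47 without the female pupae of days 1 and 4, 47 without the day 4 male pupa, 35 and 52 without the female adults of days 1 and 4, and 44 and 40 without the male adults of those days. The log2 changes then ran, for pupae against larvae, from -2.38 to 0.52 (sfr-miR-375-5p), -2.00 to -1.17 (sfr-miR-375-3p) and 3.94 to 5.11 (miR-3338-y). For adults against pupae they ran from 2.78 to 4.87, 5.06 to 7.25 and 0.13 to 0.89, and for the larval trend from -0.088 to 0.14, 0.20 to 0.28 and 1.30 to 1.94, in the same order. Adults against pupae had 47 calls with no filter, and the larval trend had 105 with the DESeq2 Wald test; the cause was not tested. DESeq2 gave miR-3338-y a log2 change of 4.38 for pupae against larvae, past the threshold. sfr-miR-375-5p passed for adults against pupae with limma (log2 4.48, adjusted p = 0.0343) and with 16 libraries and no sex term (log2 4.25, adjusted p = 0.0357 by edgeR), in a range of 0.0343 to 0.171 over 18 alternatives. Without the male pupae of days 4 and 7, the fit with fewer samples no longer called sfr-miR-375-3p (log2 4.72, adjusted p = 0.0746 by edgeR). DESeq2 gave no adjusted p for either miR-375 arm in that comparison. Directions that turned were all of values short of the threshold. They were sfr-miR-375-5p for pupae against larvae with library totals (-0.17), with limma (-1.80), without the day 7 male pupa (-2.38) and without the day 4 female adult (-0.12), and in the larval trend without instar 1 (0.14), without instar 4 (0.050), with DESeq2's size factors (0.014), DESeq2 (0.013), limma (0.0069), rows unmerged (0.032) and near copies summed (0.028). The others were sfr-miR-375-3p in the larval trend with near copies summed (-0.11) and miR-3338-y for adults against pupae with no sex term (-1.07). Scaling by library totals moved the median log2 change of pupae against larvae from -0.0077 to -0.31. Without instar 6, sfr-miR-375-3p was too low to be tested in the larval trend. Summing near copies moved the 5p share in the day 4 male adult from 71.7% to 35.7%. Of the 15 pairs of miRNA and age, 13 were higher in males under each scaling, a count that the choice of male-high miRNAs favours. No such count of pairs was made for the other rows. The ratio of sfr-miR-375-5p at adult day 4 was 69.0 with TMM factors. Depth limits sfr-miR-375-3p in pupae, miR-3338-y in young larvae and all 3 in the egg.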
